A study of Mus musculus with 24 samples.

Results

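Copy number of the 3 genes of the Igf2bp family, Igf2bp1, Igf2bp2 and Igf2bp3, was analysed in adrenal glands and neuroblastoma tumors of transgenic mice by shallow whole genome sequencing (sWGS), a low-coverage sequencing of genomic DNA that reads the dosage of large chromosome parts. The members were chosen by name, as the mouse genes of this family, and are 3 of 20621 protein-coding autosomal genes with a value in every sample. The labels list 24 samples in 4 groups. The 3 adrenal glands of CRE-negative wildtype mice (AG) are the reference to which all values are relative, and have no values of their own here. AGM comprises 5 adrenal glands of CRE + mice with the genotype MYCN fl/wt. TI comprises 8 tumors of CRE + mice with an IGF2BP1 transgene and no MYCN transgene, with the genotype IGF2BP1 +/+ in 7 of them and IGF2BP1 +/- in replicate 1. TIM comprises 8 tumors of CRE + mice with the genotype IMP1/MYCN, where IMP1 is another name of IGF2BP1. By its label, the tumor came from the adrenal gland in TI replicate 6, TIM replicate 1 and TIM replicate 5.

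The transgenes are human open reading frames without their 3′UTR, placed at the Rosa26 locus behind a stop cassette that the recombinase iCRE removes. In these mice iCRE is driven by Dbh, the gene of the noradrenaline-producing enzyme dopamine beta-hydroxylase, so that recombination is directed to sympathoadrenal cells. The transgene is therefore a human coding sequence on Chr 6, separate from the endogenous mouse Igf2bp1 described here. Only DNA was measured, so that the labelled tissue could not be checked against marker expression, and the copy number of a gene says nothing of how much of its mRNA or protein was made.

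IGF2BP proteins bind mRNAs in the cytoplasm through RNA recognition motifs and KH domains and regulate where their targets are located, translated and degraded. IGF2BP1 and IGF2BP3 are mainly made in the embryo and reappear in many tumors, whereas IGF2BP2 is also made in adult tissues. In human neuroblastoma, IGF2BP1 lies on chromosome arm 17q, a frequently gained arm, which makes the dosage of the mouse gene in these tumors a natural question.

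The 3 genes lie on 3 chromosomes and can gain or lose copies independently of each other. Igf2bp1 (ENSMUSG00000013415) lies on Chr 11 from 95847989 to 95896911 (GRCm39, minus strand), 78.6% along the chromosome, between B4galnt2 and Gip. Igf2bp2 (ENSMUSG00000033581) lies on Chr 16 from 21877759 to 21982499 (minus strand), 22.3% along, between Senp2 and Tra2b. Igf2bp3 (ENSMUSG00000029814) lies on Chr 6 from 49062144 to 49192447 (minus strand), 32.8% along, between Gpnmb and Tra2a. Rosa26 lies on the chromosome of Igf2bp3, 63.9 Mb further along. Copy number was given per segment, a stretch with 1 value, and each Igf2bp gene body lay within a single segment in all 63 combinations of gene and sample. Both neighbours of each gene had its value in 21 of 21 samples. The values below are therefore those of the chromosome part that holds the gene. In all samples 68 other genes shared every value of Igf2bp1, 94 every value of Igf2bp2 and 40 every value of Igf2bp3.

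As members of 1 family, the genes resemble each other in sequence, and reads from near-identical stretches could be assigned to the wrong member. The coding sequence has 1734 bases in Igf2bp1, 1779 in Igf2bp2 and 1740 in Igf2bp3. Aligned, Igf2bp1 and Igf2bp2 shared 70.9% of bases, Igf2bp1 and Igf2bp3 69.8%, and Igf2bp2 and Igf2bp3 71.2%. The longest stretch identical within a coding exon was 20 bases for Igf2bp1 and Igf2bp2, 18 for Igf2bp1 and Igf2bp3 and 17 for Igf2bp2 and Igf2bp3. These stretches are shown in capitals with the coding bases around them, on the coding strand, from the GENCODE M39 transcripts on GRCm39, since they are the places where the members are hardest to tell apart:
Igf2bp1, exon 1, chr11:95896327-95896356, minus strand: tcaaaTCCGGCTACGCCTTCGTGGAttgcc
Igf2bp2, exon 1, chr16:21981578-21981607, minus strand: tcaagTCCGGCTACGCCTTCGTGGActacc
Igf2bp1, exon 11, chr11:95859234-95859263, minus strand: gctgtgGGCGCCATCATTGGCAAGaagggc
Igf2bp3, exon 11, chr6:49071119-49071148, minus strand: tccgttGGCGCCATCATTGGCAAGcagggc
Igf2bp2, exon 6, chr16:21900538-21900566, minus strand: ctggtcCCCACCCAGTTTGTTGGtgccat
Igf2bp3, exon 6, chr6:49094140-49094168, minus strand: ctggttCCCACCCAGTTTGTTGGagccat
The coding exons of each member are a small part of its gene body, which spans 48.9 kb for Igf2bp1, 104.7 kb for Igf2bp2 and 130.3 kb for Igf2bp3. The segments that gave the values were longer still. For Igf2bp1 in TI they measured 34.6 to 49.9 Mb.

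The libraries compare as follows. Between 50 and 57 segments were called per AGM sample, 55 to 118 per TI sample and 48 to 123 per TIM sample. The files hold no read counts per library, so that the spread of AGM served as the measure of precision. A log2 ratio of at least 0.3 was called a gain and one of at most -0.4 a loss, the thresholds given in the study's methods. A log2 ratio between 0 and that of a whole added copy can come from a gain in some cells of the tissue or from a smaller gain in all, which cannot be told apart. The sample titles carry 2 prefixes that the labels do not explain. All AGM and TIM samples carry AGH, whereas 7 of 8 TI tumors and the AG reference glands carry SH, so that prefix and genotype cannot be told apart in comparisons of TI.

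**Figure D1:**
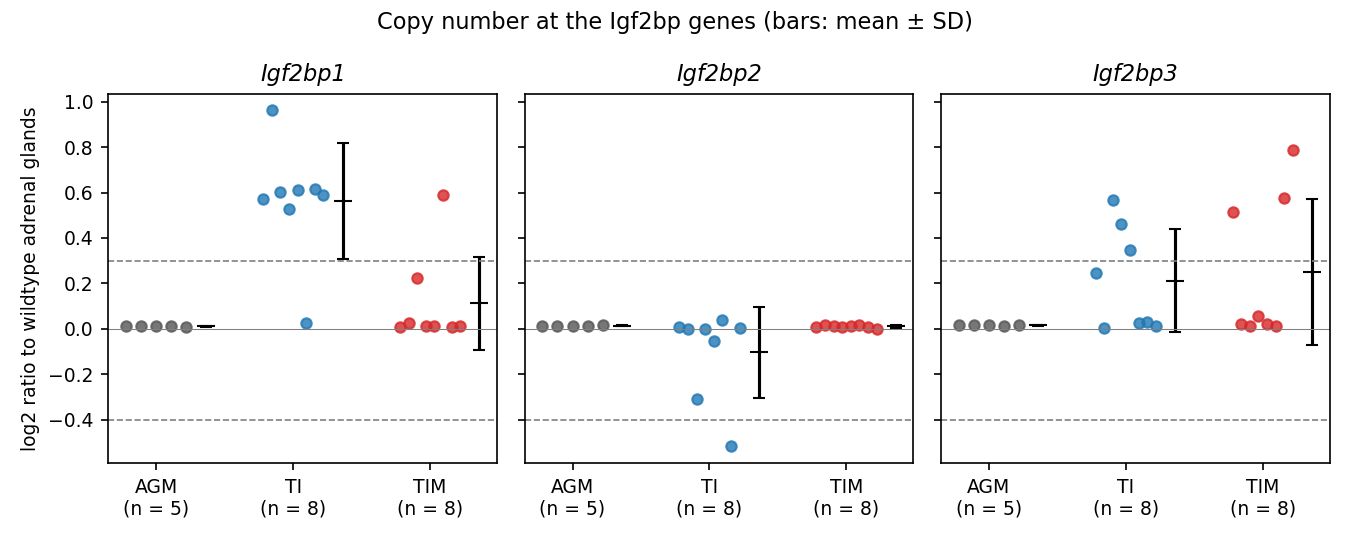
Log2 ratio to wildtype adrenal glands (vertical axis) at each Igf2bp gene for every AGM, TI and TIM sample (points), with the mean ± SD beside each group (bars) and dashed lines at the gain threshold of 0.3 and the loss threshold of -0.4. At Igf2bp1 7 of 8 TI points lie above 0.3 and at Igf2bp2 no point does, while at Igf2bp3 3 TI and 3 TIM points do.

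Igf2bp1 was gained in nearly all TI tumors and in a single TIM tumor. In TI the log2 ratio at Igf2bp1 was 0.57, 0.96, 0.60, 0.53, 0.61, 0.028, 0.62 and 0.59 in replicates 1 to 8, with a mean of 0.56 ± 0.25 (SD, n = 8). With 2 copies in the reference, this is a mean copy number of 2.99 ± 0.50 (SD, n = 8). The gains fell into a tight band of 6 tumors with 2.89 to 3.07 copies and a single higher tumor, replicate 2, with 3.90 copies. Replicate 6, the TI tumor labelled as adrenal gland, was at 2.04 copies.

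In TIM the log2 ratio at Igf2bp1 was 0.0078, 0.026, 0.22, 0.012, 0.012, 0.59, 0.0091 and 0.014 in replicates 1, 4, 5, 7, 8, 9, 11 and 12, with a mean of 0.11 ± 0.21 (SD, n = 8). Replicate 9 was therefore at the level of the TI tumors, replicate 5 lay between, and the other 6 were near 0. In AGM it was 0.015, 0.012, 0.013, 0.011 and 0.0092, with a mean of 0.012 ± 0.0020 (SD, n = 5). AGM and TI did not overlap, and AGM overlapped TIM.

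TI exceeded TIM at Igf2bp1 in 59 of 64 pairs of tumors, with a mean difference of 0.45 in log2 ratio. The Mann-Whitney test in its exact permutation form (two-sided) gave p = 0.00295, and an adjusted p of 0.0271 by Benjamini-Hochberg over all 20621 genes. In the same comparison 10.7% of all genes passed with higher values in TI, so that passing the test does not set Igf2bp1 apart from the rest of the genome. The size of the difference was less common. A mean difference at least as large was found for 1.59% of genes, 327 in number, of which 313 lie on Chr 11. The call was lost when TI replicate 1, 3, 5 or 7 was left out, with an adjusted p of 0.0513, 0.0528, 0.0543 and 0.0543, although the mean difference stayed between 0.44 and 0.45. It was kept without each of the other TI and TIM tumors. Within the prefix AGH a single TI tumor, replicate 8, remained, at 0.59, and the difference to TIM was 0.48. The exact permutation p of 0.444 could not have passed, since 1 tumor against 8 allows no p below 0.222.

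Counted as gains, Igf2bp1 was called in 87.5% of TI tumors (7 of 8, exact Clopper-Pearson 95% interval 47.3% to 99.7%) and in 12.5% of TIM tumors (1 of 8, 0.316% to 52.7%). Gains in at least 7 TI tumors were found at 3.26% of all genes, and 672 of these 673 genes lie on Chr 11. The difference between TI and TIM in these counts had a two-sided Fisher's exact test p of 0.0101, and 6.53% of all genes had a p under 0.05. After adjustment over all genes it was 0.557, at which 0% of genes passed. Gains in at least 1 TIM tumor were found at 13.7% of genes.

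Against AGM, all 8 TI tumors had higher Igf2bp1 values than all 5 adrenal glands. The exact permutation p was 0.00155, the smallest this design allows, and the adjusted p was 0.00991 over all genes. Of all genes 6.35% passed with higher values in TI, and 6.34% had groups that did not overlap in this direction. Replicate 6 exceeded AGM by little, at 0.028 against at most 0.015, and its autosomal median was also higher, at 0.025 against 0.013 to 0.014 in AGM. With each sample centred on its autosomal median, the exact permutation p was again 0.00155. TIM and AGM did not differ detectably at Igf2bp1, with an exact permutation p of 0.524 (adjusted p = 0.670) and 0% of genes passed the adjusted test. Before adjustment 2.89% of genes had a p under 0.05 with higher and 5.2% with lower values in TIM. The comparisons with AGM share their samples with the comparison of TI and TIM and are not independent of it.

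The gained part around Igf2bp1 was long and open towards the chromosome end. In the 7 gained TI tumors it began 9.75 to 46.0 Mb before the gene and ended 25.90 to 25.98 Mb beyond it, close to the last base of Chr 11. Its length was 35.8 Mb in replicate 4, 38.6 Mb in replicate 1, 43.9 Mb in replicate 7, 48.6 Mb in replicate 2, 49.9 Mb in replicate 3, 63.5 Mb in replicate 8 and 72.1 Mb in replicate 5. The right edge was thus nearly the same in these tumors while the left edge varied. Replicate 4 had the shortest gain and set the left edge of the part gained in all 7, which holds 672 protein-coding genes. Igf2bp1 did not stand out within this part. In each gained TI tumor a single segment, with 1 level, reached from at least 9.75 Mb before the gene to the right edge of the gain.

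In 5 of the 7 tumors the gain was 1 segment at 1 level. Replicate 5 was a stepped gain, with 0.23 left of the gained part in place of a value near 0. In TIM replicate 9 the gain took 118.2 Mb of Chr 11 in 7 segments, 96.9% of the chromosome, so that it covered both sides of Igf2bp1. TIM replicate 5 had its Igf2bp1 segment from 89020001 to 96780000, at 0.22 just outside the gain threshold, between gained segments on both sides. With TIM replicate 9, the part gained in all 8 tumors ran from 86100001 to 121360000 on Chr 11 (35.3 Mb, 667 genes).

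**Figure D2:**
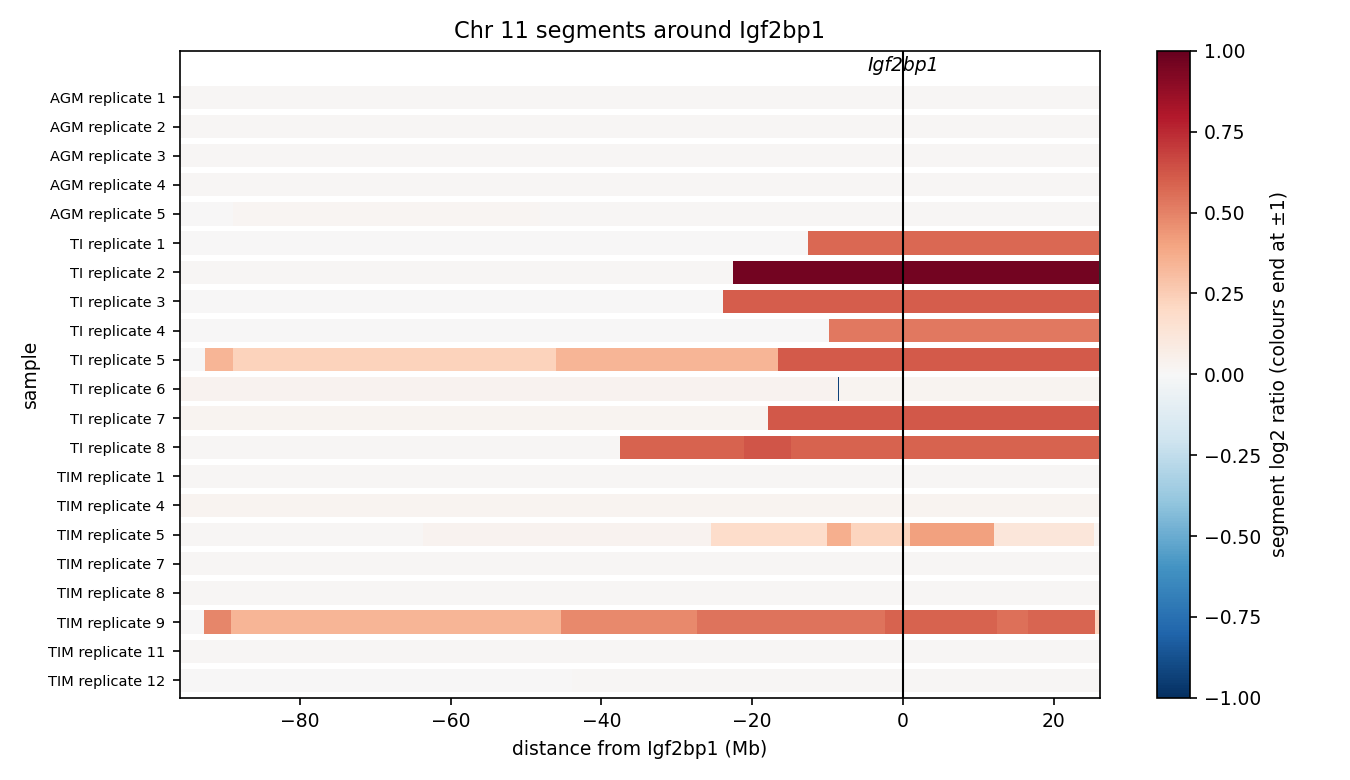
Segments of Chr 11 in each sample (rows), placed by distance from Igf2bp1 in Mb and colored by log2 ratio (red above 0, blue below 0, colors end at ±1). In the 7 gained TI tumors the part past 0.3 around the gene starts 9.75 to 46.0 Mb before it and runs close to the chromosome end, with a paler part at 0.23 further left in TI replicate 5, whereas in TIM replicate 9 it covers nearly all of Chr 11.

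The imbalance between the parts of Chr 11 on either side of the gene was measured in each sample as the median log2 ratio from Igf2bp1 to the chromosome end minus that before Igf2bp1. In TI it was 0.56, 0.95, 0.60, 0.53, 0.27, -0.0095, 0.59 and 0.58 in replicates 1 to 8, with a mean of 0.51 ± 0.28 (SD, n = 8). In TIM it was 0 in 5 tumors, 0.013 in replicate 12, 0.088 in replicate 5 and 0.10 in replicate 9, with a mean of 0.025 ± 0.043 (SD, n = 8). In all 5 AGM samples it was 0. The TIM tumor that gained Igf2bp1 hence had little imbalance, since both sides of its Chr 11 were raised, to 0.48 before the gene and 0.58 from it on. TI was higher than TIM in 56 of 64 pairs (unadjusted p = 0.00948 in the same exact permutation test). In each TI tumor the median from Igf2bp1 on equalled the value at Igf2bp1, so that this test is not independent of the test there.

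Igf2bp2 was gained in no sample, where 24.0% of genes were gained in at least 1 TI tumor. In TI its log2 ratio was 0.0066, 0, -0.31, 0, -0.054, 0.038, -0.52 and 0.0027 in replicates 1 to 8, with a mean of -0.10 ± 0.20 (SD, n = 8) and a mean copy number of 1.88 ± 0.24 (SD, n = 8). Replicates 3 and 7 were clearly reduced, replicate 5 slightly, and the other 5 were near 0. In TIM it was 0.0081, 0.018, 0.012, 0.0094, 0.014, 0.018, 0.0088 and 5.2e-05 in replicates 1, 4, 5, 7, 8, 9, 11 and 12, with a mean of 0.011 ± 0.0059 (SD, n = 8). In AGM it was between 0.014 and 0.016. TIM spread around AGM, and 7 of 8 TI tumors lay below the lowest AGM value.

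By the median log2 ratio of the segment, replicate 7 was the only TI tumor past the loss threshold at Igf2bp2, with 1.40 copies. Losses in at least 1 TI tumor were found at 9.25% of all genes and losses in at least 1 TIM tumor at 0.339%. The lost part ran from 18200001 to 29240000 on Chr 16 (11.04 Mb, 96 genes), with log2 ratios of -0.24 on its left and -0.30 on its right. The chromosome was thus reduced on both sides and lower still at the gene. Replicate 3, with 1.61 copies, lay just outside the threshold by the median. The mean log2 ratio of its segment, which was also deposited, was -0.42 and thus past the threshold. That of replicate 5 was -0.23.

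**Figure D3:**
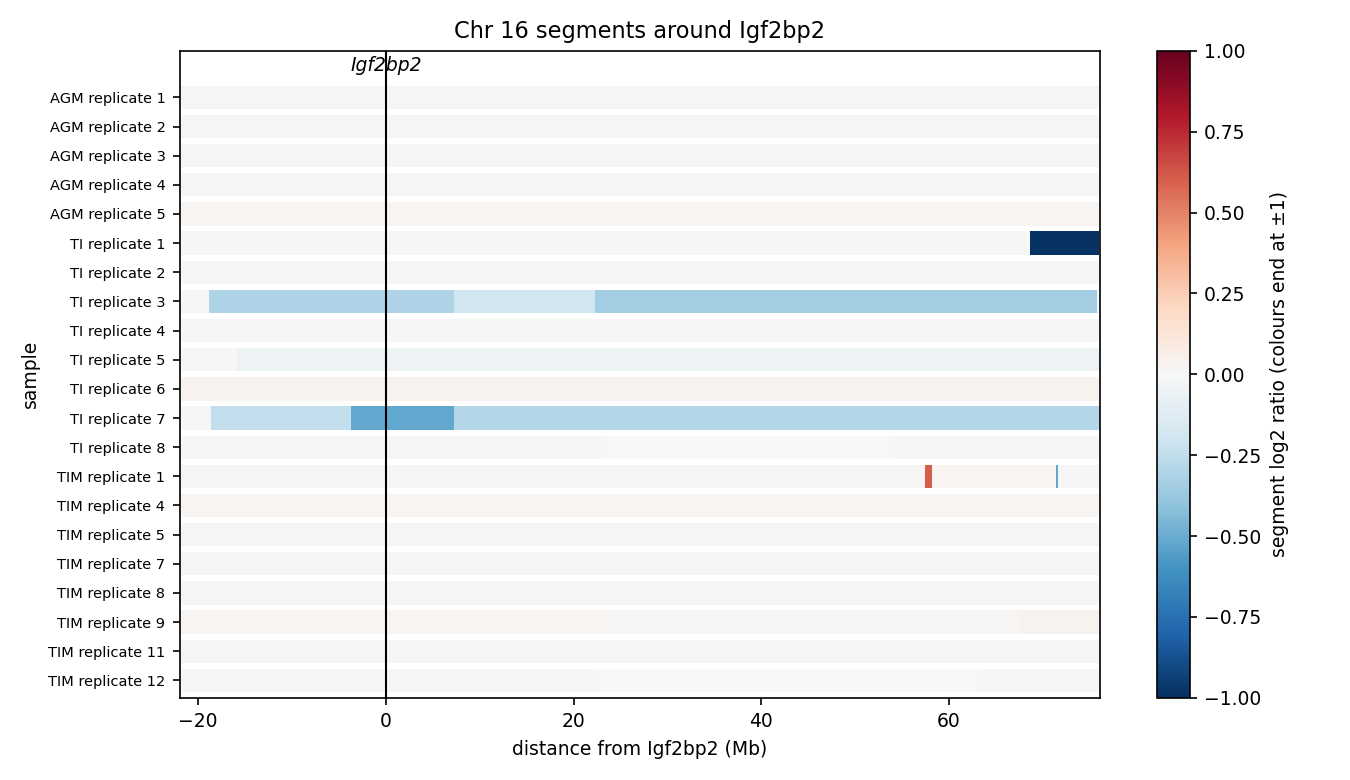
Segments of Chr 16 in each sample (rows), placed by distance from Igf2bp2 in Mb and colored by log2 ratio (red above 0, blue below 0, colors end at ±1). TI replicate 7 shows an 11.04 Mb segment at -0.52 over Igf2bp2 within a reduced chromosome, and TI replicate 3 is at -0.31 over the gene.

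TI was lower than TIM at Igf2bp2 in 54 of 64 pairs, with a mean difference of -0.12 (two-sided exact permutation test, p = 0.0193, adjusted p = 0.0733 over all genes). In this comparison 10.8% of genes passed the adjusted test with lower values in TI, and 27.6% had an unadjusted p under 0.05 in that direction. Apart from replicates 3, 5 and 7, the TI values lay between 0 and 0.038, and those of TIM between 5.2e-05 and 0.018. The median was 0 in TI and 0.011 in TIM. Without TI replicate 7 the mean difference was -0.056. The adjusted p was 0.00964 without TI replicate 6 and 0.0448 without TIM replicate 12. With the mean log2 ratio of the segment in place of its median, the exact permutation p over all tumors was 0.0650 (adjusted p = 0.195). Against AGM, again with the segment median, 35 of 40 pairs were lower in TI, with an exact permutation p of 0.0272 and an adjusted p of 0.0616. Of all genes 11.3% passed with lower values in TI, and 39.1% had an unadjusted p under 0.05 in that direction. Without TI replicate 6 the adjusted p at Igf2bp2 was 0.00783. Centred on the autosomal median of each sample, which was -0.027 to 0.025 in TI and 0.013 to 0.014 in AGM, the exact permutation p was 0.0653 (adjusted p = 0.127). For TIM against AGM, the exact permutation p was 0.435 (adjusted p = 0.670).

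At the threshold of 0.3, Igf2bp3 was gained in 3 TI and 3 TIM tumors. A threshold of 0.2 gave 4 TI and 3 TIM tumors, and one of 0.5 gave 1 TI and 3 TIM tumors. In TI its log2 ratio was 0.25, 0.0043, 0.57, 0.46, 0.35, 0.024, 0.030 and 0.012 in replicates 1 to 8, with a mean of 0.21 ± 0.23 (SD, n = 8). In TIM it was 0.51, 0.021, 0.011, 0.058, 0.019, 0.012, 0.58 and 0.79 in replicates 1, 4, 5, 7, 8, 9, 11 and 12, with a mean of 0.25 ± 0.32 (SD, n = 8). In AGM it was between 0.013 and 0.017. The TIM values split into 3 gained tumors and 5 near 0, whereas the TI values ran from near 0 up to 0.57 with intermediate levels.

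Gains at Igf2bp3 were called in TI replicates 3, 4 and 5 and in TIM replicates 1, 11 and 12, which is 37.5% of each group (3 of 8, exact Clopper-Pearson 95% interval 8.52% to 75.5%). Gains in at least 3 tumors were found at 8.94% of genes in TI and at 5.39% in TIM. The copy number of the gained tumors was 2.54 to 2.96 in TI and 2.86 to 3.45 in TIM. TI replicate 1, at 0.25, lay just outside the threshold and TI replicate 5, at 0.35, just inside it. TI and TIM did not differ detectably in log2 ratio (mean difference -0.038, two-sided exact permutation test, p = 0.878, adjusted p = 0.894) or in the count of gains (Fisher's exact test, p = 1). The test against AGM gave an exact permutation p of 0.171 for TI (adjusted p = 0.238) and 0.171 for TIM (adjusted p = 0.470), each with higher values in tumors in 30 of 40 pairs.

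Nearly all of Chr 6 was gained in 5 of the 6 tumors with an Igf2bp3 gain. The gained share of the chromosome was 97.9% in TI replicate 3, 97.7% in TI replicate 4, 97.9% in TIM replicate 1, 97.8% in TIM replicate 11 and 97.8% in TIM replicate 12. Short segments under the gain threshold interrupted the gain, at -0.73 and -0.15 in TI replicate 4 and at 0.072 in TIM replicate 12. The unbroken part around Igf2bp3 therefore measured 57.5 Mb and 101.7 Mb, with gained segments on the far side of the break. At the place of the break in TI replicate 4, every sample had a short segment with a value of its own. Its values were 2.72 to 2.94 in AGM and -5.04 to 2.09 in TI, so that this break was not particular to the gain of that tumor. TI replicate 5 was the exception, with 16.2% of Chr 6 past the threshold. Its gain around the gene measured 10.6 Mb, from 46220001 to 56800000 with 97 genes, between flanks at 0.17 on both sides. Apart from the short break in TIM replicate 12, which lies 1.32 Mb before the gene, TI replicate 5 alone set the ends of the part gained in all 6 tumors.

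**Figure D4:**
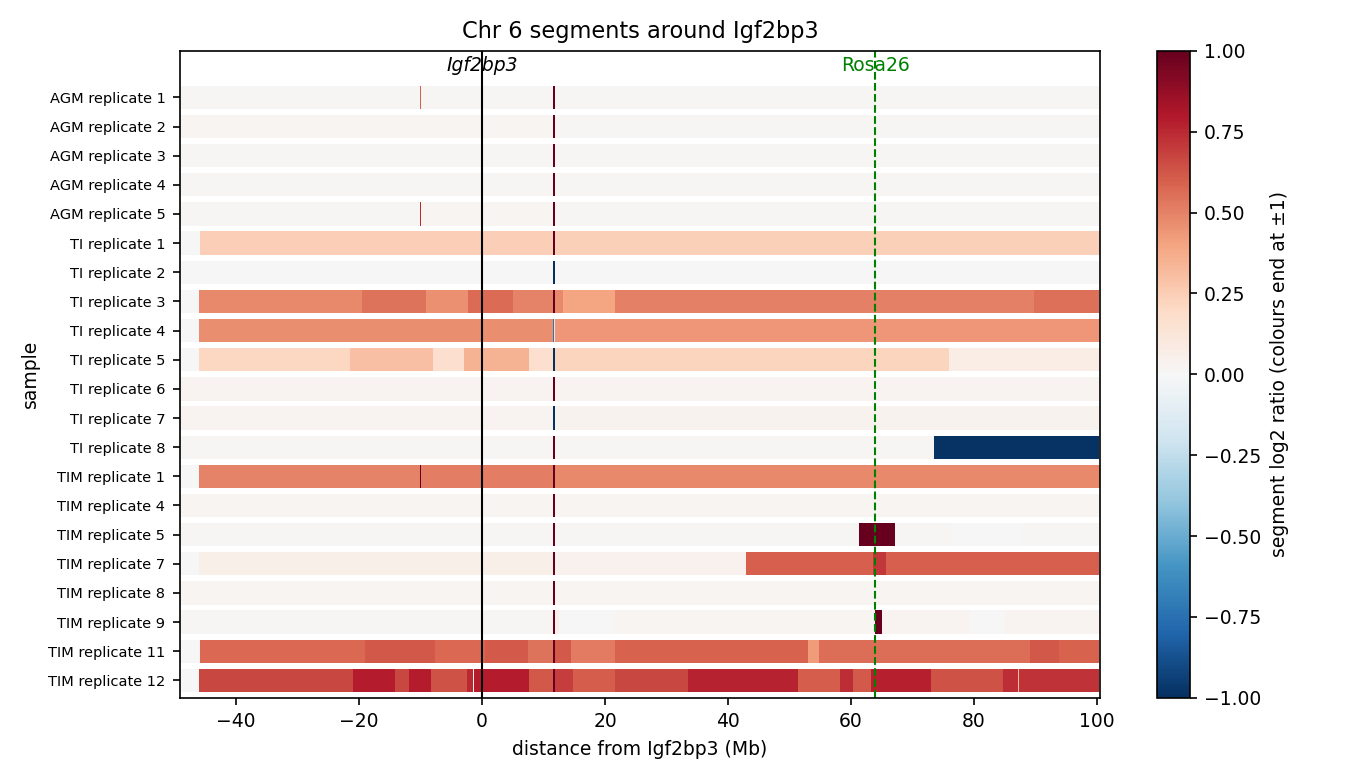
Segments of Chr 6 in each sample (rows), placed by distance from Igf2bp3 in Mb and colored by log2 ratio (red above 0, blue below 0, colors end at ±1), with the transgene site Rosa26 as a dashed line 63.9 Mb beyond the gene; thin marks are short segments with a value of their own. TIM replicates 5, 7 and 9 are gained at Rosa26 and not at Igf2bp3, whereas TIM replicates 1, 11 and 12 are gained at both.

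Since the transgenes sit on the chromosome of Igf2bp3, gains at both places were set side by side. The locus (Gt(ROSA)26Sor) spans 113043843 to 113055336 on Chr 6, and 6 TIM and 2 TI tumors had a gain there. Igf2bp3 and Rosa26 were both gained in 5 tumors, 2 TI and 3 TIM. In these the log2 ratio of Igf2bp3 was close to that of Rosa26, at 0.57 and 0.51 in TI replicate 3, 0.46 and 0.44 in TI replicate 4, 0.51 and 0.48 in TIM replicate 1, 0.58 and 0.56 in TIM replicate 11 and 0.79 and 0.78 in TIM replicate 12. In 3 TIM tumors Rosa26 was gained without Igf2bp3. Igf2bp3 was at 0.011, 0.058 and 0.012 in TIM replicates 5, 7 and 9, where Rosa26 was at 3.0, 0.71 and 3.0. TI replicate 5 was the only tumor with a gain at Igf2bp3 and not at Rosa26, at 0.35 and 0.22. Gains of Igf2bp3 in TIM thus went together with gains of the transgene site in 3 of 3 tumors, and gains of the transgene site spared Igf2bp3 in 3 of 6.

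Within a tumor the genes were compared in the same library, so that both genes carry the same prefix. In TI, Igf2bp1 exceeded Igf2bp3 in 8 of 8 tumors, by 0.35 ± 0.33 in log2 ratio (SD, n = 8; two-sided exact sign-flip permutation test, p = 0.00781, the smallest possible, adjusted p = 0.0469 over 6 comparisons). The gap was small in replicate 6, with 0.028 and 0.024 and neither gene gained, and in replicate 3, with 0.60 and 0.57. Igf2bp1 exceeded Igf2bp2 in 7 of 8 TI tumors, by 0.67 ± 0.35 (SD, n = 8; exact permutation p = 0.0156, adjusted p = 0.0469). Igf2bp2 lay below Igf2bp3 in 7 of 8 TI tumors, with a difference of -0.32 ± 0.32 (SD, n = 8; exact permutation p = 0.0391, adjusted p = 0.075). The order in TI was therefore Igf2bp1, Igf2bp3, Igf2bp2, of which the last step did not pass the adjusted test.

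In TIM no pair passed the adjusted test. Igf2bp1 minus Igf2bp2 was 0.10 ± 0.20 (SD, n = 8; exact permutation p = 0.0547, adjusted p = 0.075), Igf2bp1 minus Igf2bp3 -0.14 ± 0.45 (exact permutation p = 0.453, adjusted p = 0.453) and Igf2bp2 minus Igf2bp3 -0.24 ± 0.33 (exact permutation p = 0.0625, adjusted p = 0.075). Leaving out single tumors moved the differences of Igf2bp1 to the other members. Without TIM replicate 9, Igf2bp1 minus Igf2bp2 was 0.034 and Igf2bp1 minus Igf2bp3 -0.24. Igf2bp1 minus Igf2bp3 was -0.086, -0.077 and -0.047 without TIM replicates 1, 11 and 12, the 3 tumors with an Igf2bp3 gain. The TIM values had no common order, as Igf2bp3 was far above the other members in its 3 gained tumors and Igf2bp1 in replicates 5 and 9.

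**Figure D5:**
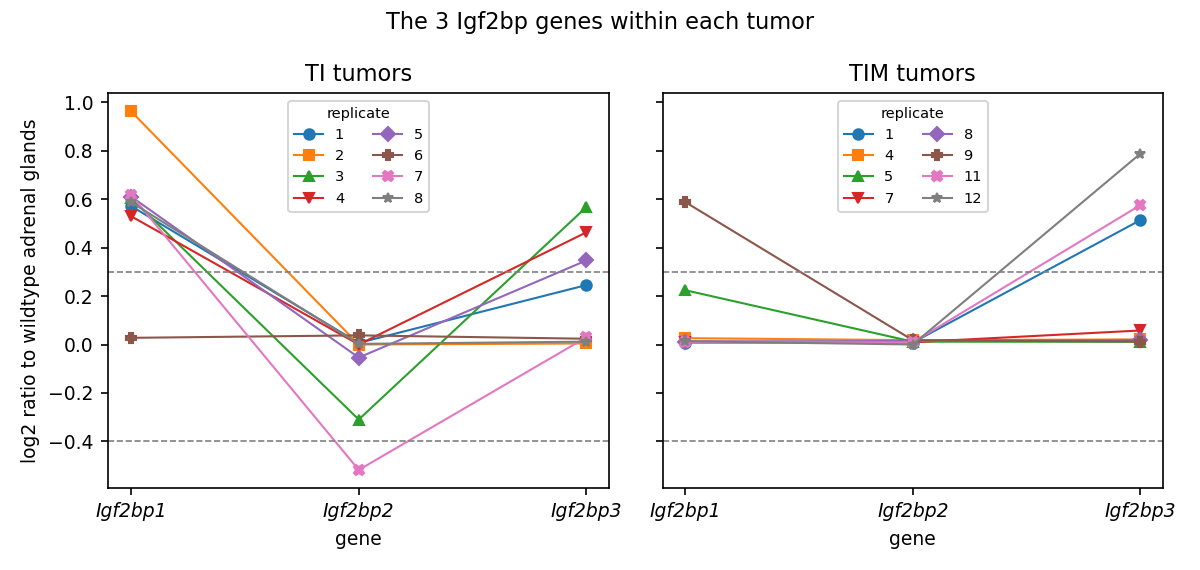
Log2 ratio to wildtype adrenal glands (vertical axis) of the 3 Igf2bp genes in each TI tumor (left) and each TIM tumor (right), where a line joins the values of 1 tumor and dashed lines mark the thresholds of 0.3 and -0.4. In TI 8 of 8 lines are higher at Igf2bp1 than at Igf2bp3, whereas in TIM the 3 lines that rise at Igf2bp3 are near 0 at Igf2bp1.

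The combinations of gains were counted in each tumor group. In TI, 3 tumors gained both Igf2bp1 and Igf2bp3, 4 gained Igf2bp1 alone and 1, replicate 6, neither. In TIM no tumor gained both, 1 gained Igf2bp1 alone, 3 gained Igf2bp3 alone and 4 gained neither. All TI gains of Igf2bp3 therefore lay in tumors with an Igf2bp1 gain, and no TIM gain of Igf2bp3 did. Igf2bp1 was gained in 7 of 8 TI tumors and 1 of 8 TIM tumors, so that these overlaps can arise from its counts alone. Whether the overlap differed between the groups was not tested. Across the 16 tumors, Pearson's r of the log2 ratios was -0.37 for Igf2bp1 and Igf2bp2, -0.19 for Igf2bp1 and Igf2bp3 and -0.040 for Igf2bp2 and Igf2bp3, as a description of points that share genotype, prefix and reference.

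Genes on other chromosomes with the most similar pattern over the 16 tumors were sought by Pearson's r, 1 gene per chromosome. Genes in the same segments tie, so that a named gene stands for its chromosome part, with 723 genes at the value given for Chr 19, 47 at that for Chr 3 and 3 each at those for Chr 12 and Chr 13. For Igf2bp1 these were Fam177a on Chr 12 (r = 0.82), which was gained in 5 TI and 0 TIM tumors, Gm15446 on Chr 5 (r = 0.62) and Zfp997 on Chr 13 (r = 0.53). Neither Gm15446 nor Zfp997 was gained in any tumor, and their log2 ratios ran from -3.23 to 0.0077 and from -1.03 to 0.27. For Igf2bp2 the most similar genes were Ppp2r3d on Chr 9 (r = 0.95), Enho on Chr 4 (r = 0.94) and Ighmbp2 on Chr 19 (r = 0.87), and none of these 3 was gained in any tumor. For Igf2bp3 they were Zfp608 on Chr 18 (r = 0.49), Vtcn1 on Chr 3 (r = 0.46) and Rims1 on Chr 1 (r = 0.34). The patterns of Igf2bp2 rest on the few tumors with reduced values, and Igf2bp3 had no close match on another chromosome.

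Genes that act with the IGF2BP proteins were examined next, in lists of protein partners, of the m6A machinery and of bound mRNAs. Of 7 genes for proteins found with IGF2BP1 in mRNA complexes, such as Ybx1, Syncrip and Hnrnpu, none was gained or lost in at least 3 tumors of a group. Over all genes, 8.94% were gained in at least 3 TI tumors and 5.39% in at least 3 TIM tumors, and 0.097% and 0.0776% were lost, so that 0 of 7 is no result about the list. Of these 1 passed the test of TI against TIM, Syncrip, lower in TI with a median log2 ratio of -0.18 against 0.011 (exact permutation, adjusted p = 0.0371). Of 8 genes that write, erase or read m6A, an mRNA methylation that IGF2BP proteins can read, none was gained or lost in at least 3 tumors of a group either, beside the same shares of all genes. Here 1 passed, Wtap, a subunit of the methyltransferase complex, higher in TI with a median of 0.13 against 0.0077 (exact permutation, adjusted p = 0.0271). Both shares lay below the 21.5% of all genes that passed in either direction.

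Of 11 genes whose mRNAs IGF2BP1 is known to bind, 2 were gained in at least 3 TI tumors and none in at least 3 TIM tumors, beside 8.94% and 5.39% of all genes. Mycn, the neuroblastoma oncogene on Chr 12, was gained in 5 TI and 0 TIM tumors, with a median of 0.54 in TI and 0.0059 in TIM. Birc5, the gene of the apoptosis inhibitor survivin, lies at 117740040 to 117746581 on Chr 11 within the part gained with Igf2bp1, and was gained in 7 TI tumors and 1 TIM tumor. The test of TI against TIM was passed by 3 of the 11, all higher in TI: Mycn (exact permutation, adjusted p = 0.00500), Birc5 (adjusted p = 0.0271) and Srf (adjusted p = 0.0371). This is 3 of 11 genes where 21.5% of all genes passed. The median log2 ratio of the 11 genes was 0.010 in TI and 0.011 in TIM, beside 0.0083 and 0.012 over all genes.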

How the data were processed

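The data are sWGS of genomic DNA from murine adrenal glands and tumors, where each sample was taken as a separate animal and p-values measure the spread between samples. The authors trimmed reads (cutadapt 2.8), aligned them with HISAT2 2.1.0 to the mouse genome mm39 (SAMtools 1.10; versions from the submitters' processing notes) and called copy number with cn.MOPS relative to wildtype adrenal glands. The deposited values are the median and mean log2 ratio of 1485 segments, with a copy number that equalled 2 × 2^median to 1 decimal in all 1485. Window length and segmentation settings are not given in the sources used here, and each segment began on a grid of 20 kb. Coverage was low by design, below 1 read per base on average per the labels. Reads were not used here, so that the depth of each library was not analysed here.

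Genes were placed with the GENCODE M39 annotation of GRCm39, the same build. A gene's value was the median log2 ratio of its segments, weighted by overlap. The X chromosome was not analysed here. TI, TIM and AGM were compared by the Mann-Whitney test in its exact permutation form (two-sided), for each of 20621 protein-coding autosomal genes, with Benjamini-Hochberg adjustment over all of them. These genes held 732 distinct patterns of values, so that the tests are not independent. Gains were compared by Fisher's exact test and members within tumors by an exact sign-flip permutation test. Scripts in Python 3.11.15 with scipy 1.17.1, numpy 2.4.6, Biopython 1.88, pandas 2.3.3 and matplotlib 3.10.9 were tested on simulated data.

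Named were the members, their neighbours, the transgene site, the 3 most similar genes on other chromosomes, and list genes gained or lost in at least 3 of 8 tumors of TI or TIM. Ybx1 and Hnrnpu were named as examples of their list, and Syncrip, Wtap and Srf after their test results were seen. The members and lists were chosen with earlier results of these data known. No 2 samples held identical values (0 of 210 pairs). Alternatives are given in the closing section.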

Additional observations from a re-analysis of the deposited data

Results flagged for a closer look

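At Igf2bp1, TI replicate 6 had a log2 ratio of 0.028, far below the other 7 TI tumors, which lay between 0.53 and 0.96. TIM replicate 9 had a log2 ratio of 0.59 at Igf2bp1, far above the other 7 TIM tumors, the highest of which was at 0.22. Both were found by the gap to the nearest sample relative to the range of the group, which was tested for 12 sets of samples. By chance this marks about 1 in 20 sets.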

How the results depend on the processing

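For 19 results 355 alternatives were computed, of which 324 kept the direction and the side of the threshold. The values below are exact permutation p, adjusted over all genes for a group comparison and unadjusted within tumors and for the Chr 11 imbalance. TI against TIM at Igf2bp1 had 0.0513 with IGF2BP1 +/+ tumors only and 1 with prefix AGH only. At Igf2bp2, tumors outside the adrenal gland gave 0.0343 for TI against TIM and 0.00783 for TI against AGM, both past the threshold. With prefix AGH only, which leaves 1 TI tumor and no p that could pass, TI against AGM had 0.444 at Igf2bp1 and 0.444 at Igf2bp3, there in the opposite direction. The mean log2 ratio of the segment gave 0.0391 for Igf2bp1 minus Igf2bp2 within TIM.

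Same-numbered samples did not deviate together, with correlations from -0.43 to 0.46 over 5 shared numbers of TI and TIM, so that the numbers do not pair the samples. With a replicate block, TI against TIM had 0.167 at Igf2bp1 and, reversed, 0.744 at Igf2bp3, TI against AGM at Igf2bp1 had 0.109, and the Chr 11 imbalance had 0.0625, the smallest p that 5 numbers allow.

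Leaving out 1 tumor or gland at a time, the p for TI against TIM ran from 0.00978 to 0.0543 at Igf2bp1, from 0.00964 to 0.141 at Igf2bp2 and from 0.731 to 0.984 at Igf2bp3, where the majority of tumor pairs turned to higher in TI without TI replicates 2 or 8 or TIM replicates 1, 11 or 12 (0.953, 0.984, 0.961, 0.901 and 0.947) and the mean difference turned positive without TIM replicates 11 or 12. It ran from 0.00783 to 0.101 for TI against AGM at Igf2bp2, from 0.0156 to 0.0781 for Igf2bp2 minus Igf2bp3 within TI, from 0.0469 to 0.109 for Igf2bp1 minus Igf2bp2 within TIM and from 0.0313 to 0.125 for Igf2bp2 minus Igf2bp3 within TIM.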
